A study of Mus musculus with 9 samples.

Results

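The interferon response and class I antigen presentation were followed here through 39 genes, out of 17305 named genes on the array. The genes were taken by name, as a set of interferon-induced genes and of genes that load peptides onto MHC class I molecules. Of these, 37 had a probe that could be named and tested, among 14193 named genes tested. Mx1 and Mx2, the Mx family of antiviral GTPases, had no probe named here. All 37 measured members were well above background on all 9 arrays, so none entered through 1 group alone.

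RNA came from colonic mucosa, labelled as normal, of ICR mice, an outbred stock. The first group ate 3% calcium and carried tumors (with tumors, 3 arrays). The second had the same diet and no tumors (without tumors, 3 arrays). The third had a diet with 1.24% calcium and is called DMH after its label (3 arrays). All 3 groups, DMH included, had been injected subcutaneously with the carcinogen 1,2-dimethylhydrazine, at 20 mg/kg once a week over 20 weeks. Tumor status in DMH is given only as control, and an untreated group was not analysed here. The labels do not say whether arrays within a group stand for different mice. The p-values therefore reflect the array-to-array spread, which may be technical.

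Interferons are secreted when cells sense viral or bacterial nucleic acids, or, for interferon gamma, by activated T and NK cells. Type I and type III interferons act through a complex holding Stat2 and Irf9 that binds the interferon-stimulated response element (ISRE) in promoters, whereas interferon gamma acts on the gamma-activated site (GAS). The induced genes block viral replication, attack microbes inside cells, and raise the cutting, transport and display of peptides on MHC class I molecules. In the colon such genes are expressed by epithelial and immune cells.

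Values are log2 signals after subtraction of each array's 75th percentile, so that a signal of 0 equals that percentile and differences are in log2 units. A gene passed when its adjusted p was under 0.05, with adjustment over all 21095 features tested. Between 25154 and 30375 of 41174 probes were well above background on each array, and 0 spots were saturated. All 11 colon epithelial markers looked for were measured. Their mean signal per array was between 6.08 and 6.59, far above the 75th percentile. DMH replicate 1 shared slide 1 with all 3 arrays without tumors. DMH replicates 2 and 3 shared slide 2 with replicates 1 and 2 with tumors, and replicate 3 with tumors was alone on slide 3. Arrays of different groups on 1 slide correlated at r of 0.979 to 0.983 over features, and arrays of 1 group on different slides at 0.967 to 0.984. No slide held both high calcium groups. Values with the slide as a block therefore link them through the DMH arrays and draw nothing from replicate 3 with tumors. In such bulk RNA, fewer cells of a type and less RNA per cell cannot be told apart.

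Promoters are shown first because many members share a short element there. RefSeq promoters (build GRCm38.p6, 250 bases before to 50 after a transcript's start) were found for 30 of the 39 genes. The ISRE core was searched as GAAA, any 2 bases and GAAA again, on both strands, so that TTTC, any 2 bases and TTTC counts as a match. The GAS was searched as TTCNNNGAA, which reads alike on both strands. Overlapping matches were each counted as matches. The ISRE core was present in 56.7% of these 30 genes (17 genes), against 3.99% of 27025 genes with a promoter. The GAS was present in 23.3% of the 30 (7 genes), against 9.55% of all. Gbp3 and Ifit3 were among the members most unlike between the high calcium groups, and each held a pair of ISRE cores. Cxcl9, which moved the other way, held neither motif as searched. Oas1a, Oas3 and Stat2, also lower with tumors than without, held ISRE cores, so matches did not follow 1 direction. Elements with other letters were not searched. Gbp3 was read at chr3:142559794-142560093 on the plus strand, Ifit3 at chr19:34583279-34583578 on the plus strand and Cxcl9 at chr5:92328030-92328329 on the minus strand. The promoter of another Gbp3 start in the table held neither motif. Capitals mark ISRE cores, which overlap in Gbp3.
Gbp3: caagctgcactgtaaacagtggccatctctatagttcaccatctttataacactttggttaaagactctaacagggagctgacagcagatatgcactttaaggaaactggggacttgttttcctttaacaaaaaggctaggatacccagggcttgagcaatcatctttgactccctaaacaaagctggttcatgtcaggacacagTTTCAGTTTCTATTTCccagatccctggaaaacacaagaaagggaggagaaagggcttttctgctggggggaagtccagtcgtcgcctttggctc
Ifit3: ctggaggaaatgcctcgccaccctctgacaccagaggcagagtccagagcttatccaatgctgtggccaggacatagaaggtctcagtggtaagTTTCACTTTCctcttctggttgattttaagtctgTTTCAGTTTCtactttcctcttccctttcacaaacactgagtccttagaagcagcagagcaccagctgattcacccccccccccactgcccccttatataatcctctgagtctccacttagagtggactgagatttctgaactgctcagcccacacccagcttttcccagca
Cxcl9: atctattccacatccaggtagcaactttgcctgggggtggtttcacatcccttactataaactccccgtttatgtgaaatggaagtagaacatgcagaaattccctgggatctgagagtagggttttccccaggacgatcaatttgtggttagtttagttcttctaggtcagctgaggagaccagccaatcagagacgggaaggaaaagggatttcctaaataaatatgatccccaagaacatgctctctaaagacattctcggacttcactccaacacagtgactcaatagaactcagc

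A match describes letters and not binding. Short stretches around a core, with 10 bases on each side, are shown for members that did not share 1 pattern across the groups, with capitals for the core. Relative to the transcript start, the Gbp2 core began at -59 and that of Ifit1, the farther of a pair, at -104. In Isg15 the stretch was the middle of 3 overlapping cores, at -72, and in Oas1a the nearer of an overlapping pair, at -14. The Ddx58 core began at 2.
Gbp2, chromosome 3: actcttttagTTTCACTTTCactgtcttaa
Ifit1, chromosome 19: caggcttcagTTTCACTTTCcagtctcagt
Isg15, chromosome 4: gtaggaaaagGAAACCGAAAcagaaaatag
Oas1a, chromosome 5: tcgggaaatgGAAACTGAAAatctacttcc
Ddx58, chromosome 4: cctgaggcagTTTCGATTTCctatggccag

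Among these, against DMH, Gbp2 was higher in both high calcium groups, Ddx58 lower in both on its brightest probe, and Oas1a higher without tumors. Ifit1 and Isg15 passed in no comparison. Ifi44 and Oasl2, whose promoters held neither motif in this window, were higher with tumors.

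The comparison between the high calcium groups had the most calls among the members, as it had over all features. With tumors, 14 of 37 members were higher than without tumors (37.8%, against 27% of all features) and 6 were lower (16.2%, against 20.6%). Their median difference was 0.15, against 0 over all features. The 14 were 8 antiviral effectors, 2 sensors, 3 GTPases and Usp18 of the ISG15 system. The 6 were the antiviral effectors Oas1a and Oas3, the factor Stat2, Psmb8 and Tap2 of class I presentation, and the chemokine Cxcl9. With the slide as a block, 10 members were higher and 2 lower, with a median of 0.21, while 15.6% of all features were higher and 14.4% lower. Of the 20 calls 10 remained with the block (50%, as over all features), and 9 on the authors' median-centred table of values, all 20 with an unchanged sign in both. With the mean of a gene's probes, 13 were higher and 11 lower, and the median was -0.04 for the members and for all features alike. Without replicate 1 without tumors the median was 0.05. The heat map of all members shows these opposite blocks of genes.

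**Figure D1:**
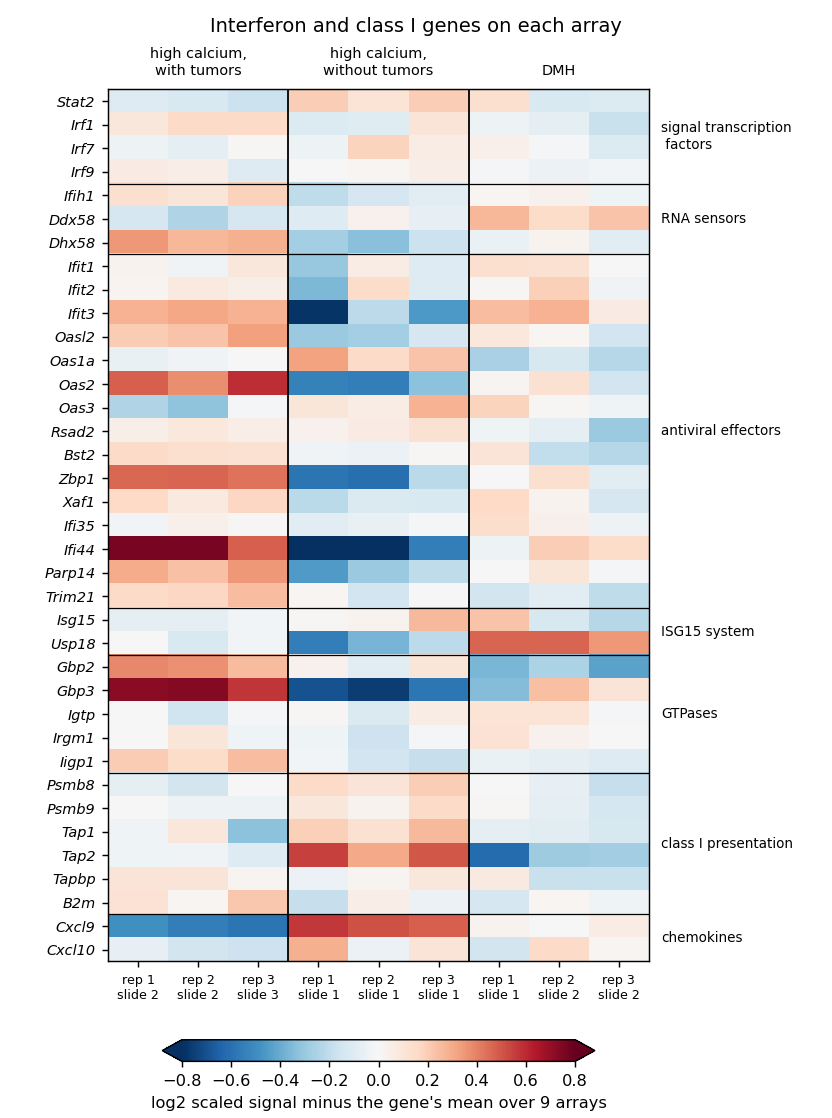
Log2 scaled signal of the 37 measured genes minus each gene's mean over the 9 arrays, as colour (red higher, blue lower), by group, replicate and slide. Ifi44, Gbp3, Oas2 and Zbp1 are red on the 3 arrays with tumors and blue on the 3 without, and Cxcl9 has the opposite colours.

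Among the RNA sensors, Dhx58, the sensor LGP2, had signals of 2.24, 2.16 and 2.18 with tumors, 1.62, 1.56 and 1.72 without tumors, and 1.84, 1.92 and 1.81 in DMH. The 3 groups did not overlap, with DMH between the high calcium groups. With tumors it was 1.47-fold higher than without (0.56 ± 0.06 SE, n = 3 arrays per group, adjusted p = 0.000273), and this passed in all 20 alternative settings other than a required 2-fold change. Ifih1, the long double-stranded RNA sensor MDA5, had 2.14, 2.11 and 2.20 with tumors and 1.81, 1.88 and 1.92 without tumors (0.28 ± 0.05, adjusted p = 0.00307). The call ended with the slide as a block (0.27, adjusted p = 0.0729) and with the mean of its probes, where the difference was -0.04. Ddx58, the sensor RIG-I, differed by -0.13 ± 0.06 between the high calcium groups (adjusted p = 0.132).

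Ifi44, an interferon-induced cytosolic protein, differed most among the members between the high calcium groups. Its signals were 0.87, 0.87 and 0.59 with tumors, -0.76, -0.76 and -0.44 without tumors, and 0.07, 0.31 and 0.26 in DMH. Every array with tumors was above every DMH array, and every array without tumors below. With tumors it was 2.69-fold higher than without (1.43 ± 0.12, adjusted p = 0.000136), and 1.31 with the slide as a block (adjusted p = 0.00697).

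Oas2, an oligoadenylate synthetase that makes the activator of RNase L, had 2.26, 2.15 and 2.37 with tumors, 1.24, 1.23 and 1.45 without tumors, and 1.80, 1.90 and 1.63 in DMH. Zbp1, which binds Z-form nucleic acids and can start cell death, had 1.81, 1.82 and 1.79 with tumors, 0.77, 0.75 and 1.14 without tumors, and 1.35, 1.48 and 1.27 in DMH. Neither gene's groups overlapped, and DMH lay in the middle for both. The differences with tumors against without were 0.96 ± 0.10 for Oas2 (adjusted p = 0.000259) and 0.92 ± 0.11 for Zbp1 (adjusted p = 0.000531). The slide block gave 0.94 and 0.90 (adjusted p = 0.0166 and 0.0335).

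Parp14, an ADP-ribosyltransferase, had 3.65, 3.59 and 3.70 with tumors, 2.90, 3.06 and 3.15 without tumors, and 3.36, 3.45 and 3.34 in DMH, again without overlap. It was 0.61 ± 0.07 higher with tumors than without (adjusted p = 0.000476). Another Parp14 probe differed by 0.49, and the dimmest, well above background on 6 of 9 arrays, by -1.45. The mean of the 3 probes differed by -0.12 (adjusted p = 0.244). Oasl2, of the oligoadenylate synthetase-like proteins, had 4.61, 4.63 and 4.73 with tumors, 4.11, 4.13 and 4.27 without tumors, and 4.49, 4.42 and 4.25 in DMH. Arrays with tumors were all above the others, while DMH overlapped the group without tumors. Its difference with tumors against without was 0.49 ± 0.08 (adjusted p = 0.00197), and 0.60 with the slide as a block (adjusted p = 0.0219).

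Ifit3, of a family that binds viral RNA and limits its translation, had another pattern. It had 2.05, 2.08 and 2.05 with tumors, 0.99, 1.56 and 1.31 without tumors, and 2.02, 2.05 and 1.84 in DMH. The arrays without tumors were the lowest 3 of the 9 and also the most spread, while the other groups overlapped. With tumors it was 1.71-fold higher than without (0.78 ± 0.14, adjusted p = 0.00284), a call that ended with the slide as a block (0.85, adjusted p = 0.0692). Its relatives Ifit1 (0.15 ± 0.09, adjusted p = 0.241) and Ifit2 (0.15 ± 0.13, adjusted p = 0.348) did not pass.

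Of the other antiviral effectors, Xaf1, a partner of the apoptosis inhibitor XIAP, was 0.28 ± 0.08 higher with tumors than without (adjusted p = 0.0211), and 0.47 with the slide as a block (adjusted p = 0.0303). The Xaf1 call ended without replicate 1 without tumors (adjusted p = 0.0722) or replicate 1 with tumors (adjusted p = 0.0636), and in 4 other settings. Trim21, a cytosolic antibody receptor and ubiquitin ligase, was 0.23 ± 0.06 higher (adjusted p = 0.0203), a call lost without replicate 2 without tumors (0.17, adjusted p = 0.0521) and with the slide as a block (0.21, adjusted p = 0.239). The relatives Oas1a and Oas3 were lower with tumors, with differences of -0.26 ± 0.06 (adjusted p = 0.0084) and -0.34 ± 0.10 (adjusted p = 0.0294). Oas1a had 1.83, 1.86 and 1.89 with tumors, 2.21, 2.04 and 2.12 without tumors, and 1.63, 1.76 and 1.66 in DMH, with no overlap. Both calls ended with the slide as a block (-0.36, adjusted p = 0.0564, and -0.23, adjusted p = 0.217). That of Oas3 also ended without replicate 1 or 3 without tumors (adjusted p = 0.0583 and 0.0957) or replicate 1 or 2 with tumors (adjusted p = 0.0871 and 0.0959). Oas2 was thus higher, and Oas1a and Oas3 lower, with tumors. Rsad2 (viperin, -0.01), Bst2 (tetherin, which holds budding virions, 0.16) and Ifi35 (0.06) did not pass (adjusted p = 0.914, 0.18 and 0.421). The value of Rsad2 is that of its brightest probe, and its other 2 probes differed by -1.86 and -1.30. The dimmer of these had -4.56, -4.77 and -4.29 with tumors, -2.65, -2.71 and -2.69 without tumors, and -3.26, -3.26 and -3.31 in DMH, with no overlap. The mean of the 3 probes differed by -1.06 (adjusted p = 0.00115), so the Rsad2 probes disagree. Bst2 passed with the slide as a block (0.47, adjusted p = 0.00869).

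**Figure D2:**
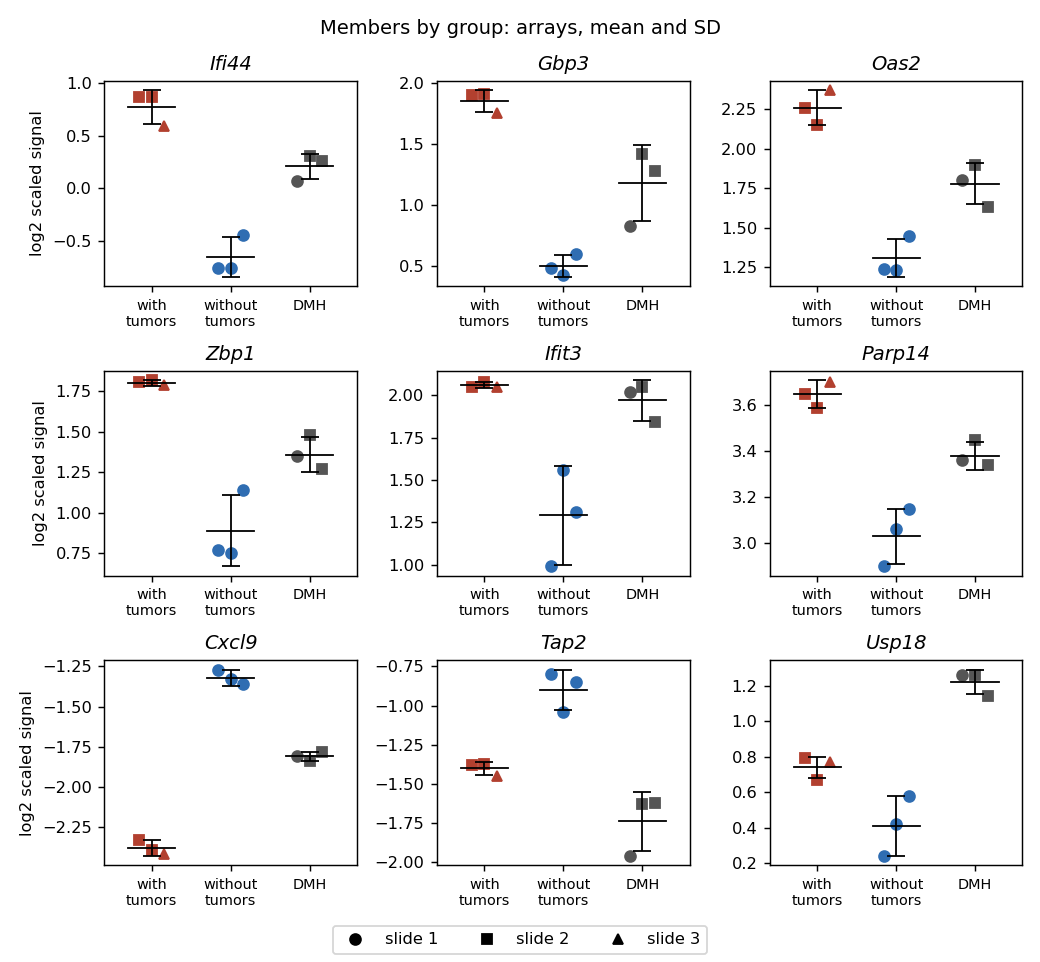
Log2 scaled signals of 9 genes by group. Points are arrays, shaped by slide, and bars are the mean ± SD of 3 arrays. DMH lies between the high calcium groups for Ifi44, Gbp3, Oas2, Zbp1, Parp14 and Cxcl9, below both for Tap2 and above both for Usp18.

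Interferon-induced GTPases gather on the membranes of microbes inside cells. Gbp3, a guanylate-binding protein, had 1.90, 1.91 and 1.75 with tumors, 0.48, 0.42 and 0.60 without tumors, and 0.83, 1.42 and 1.28 in DMH. The groups did not overlap, and DMH replicate 1, on the slide of the arrays without tumors, was the lowest of its group. With tumors Gbp3 was 2.55-fold higher than without (1.35 ± 0.15, adjusted p = 0.000351), and the difference was 0.88 with the slide as a block (adjusted p = 0.00705). Gbp2 had 2.71, 2.69 and 2.58 with tumors, 2.36, 2.24 and 2.42 without tumors, and 1.96, 2.07 and 1.90 in DMH. Both high calcium groups lay above DMH without overlap. Gbp2 was 0.32 ± 0.07 higher with tumors than without (adjusted p = 0.00779), as was the immunity-related GTPase Iigp1 (0.32 ± 0.06, adjusted p = 0.00305). With the slide as a block these differences were 0.33 and 0.32 and no longer passed (adjusted p = 0.102 and 0.068). Igtp (-0.04) and Irgm1 (0.09), of the same GTPase family as Iigp1, did not pass (adjusted p = 0.693 and 0.272).

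In the ISG15 system, the ubiquitin-like modifier Isg15 differed by -0.16 ± 0.13 (adjusted p = 0.336). Usp18, which removes ISG15 from proteins and damps the type I interferon receptor, had 0.79, 0.67 and 0.77 with tumors, 0.24, 0.42 and 0.58 without tumors, and 1.26, 1.26 and 1.14 in DMH. DMH was above both high calcium groups, which did not overlap. Usp18 was 0.33 ± 0.09 higher with tumors than without (adjusted p = 0.0187), a call that ended with the slide as a block (0.38, adjusted p = 0.16) and when replicate 1 with tumors was left out (0.31, adjusted p = 0.0615).

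Of the 6 members that serve class I presentation, 2 were lower with tumors than without and the others did not pass (median -0.17). Tap2, a subunit of the transporter that carries peptides into the endoplasmic reticulum, had -1.38, -1.37 and -1.45 with tumors, -0.80, -1.04 and -0.85 without tumors, and -1.96, -1.63 and -1.62 in DMH. Arrays without tumors were highest and DMH arrays lowest, with no overlap. Tap2 was 1.42-fold lower with tumors than without (-0.50 ± 0.11, adjusted p = 0.00657). The difference was -0.82 with the slide as a block (adjusted p = 0.0101), and on the authors' table it was -0.44 and did not pass (adjusted p = 0.102). Tap1, its partner subunit, differed in the same direction without passing (-0.28 ± 0.10, adjusted p = 0.0598). The immunoproteasome subunit Psmb8 was lower with tumors (-0.22 ± 0.07, adjusted p = 0.0273), but not with the slide as a block (-0.13, adjusted p = 0.368). Leaving out replicate 1 or 3 without tumors ended the Psmb8 call (adjusted p = 0.0715 and 0.0881), as did leaving out replicate 1 or 2 with tumors (adjusted p = 0.0709 and 0.0926). Psmb9, another immunoproteasome subunit, differed by -0.12 and Tapbp, the loading chaperone tapasin, by 0.05 (adjusted p = 0.123 and 0.621). Tapbp was 0.33 higher with the slide as a block (adjusted p = 0.0388).

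B2m, the light chain of class I molecules, showed how far probes of a gene can part. Its brightest probe had 6.03, 5.93 and 6.13 with tumors, 5.73, 5.97 and 5.87 without tumors, and 5.78, 5.93 and 5.88 in DMH, and the groups overlapped (0.17 ± 0.08 with tumors against without, adjusted p = 0.123). Its other probe had 2.84, 2.80 and 2.84 with tumors, 0.36, 0.45 and 0.38 without tumors, and 0.25, 2.76 and 2.63 in DMH. Low values of that probe fell on the 4 arrays of slide 1 and high values on the 5 arrays of slides 2 and 3, across groups. The plot of both probes shows this split by slide, whose origin was not tested.

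**Figure D3:**
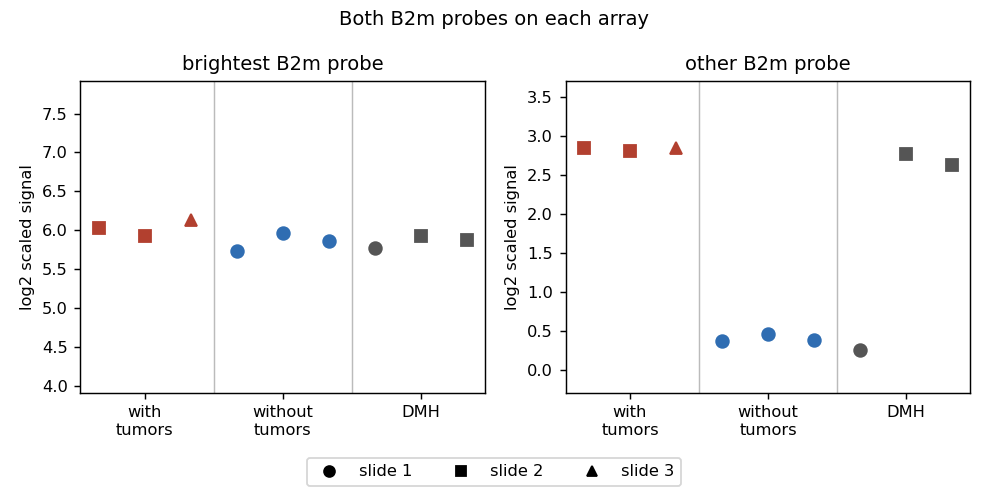
Log2 scaled signal of both B2m probes on each array, by group, with the slide as point shape. The brightest probe runs from 5.73 to 6.13 on all arrays, whereas the other probe lies at 0.25 to 0.45 on slide 1 and at 2.63 to 2.84 on slides 2 and 3.

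Cxcl9 and Cxcl10 encode chemokines that attract T cells through the receptor CXCR3, and Cxcl9 is induced mainly by interferon gamma. Cxcl9 had -2.33, -2.39 and -2.42 with tumors, -1.27, -1.33 and -1.36 without tumors, and -1.81, -1.84 and -1.78 in DMH. The groups were well apart, in the reverse of the order seen for Ifi44 and Gbp3. With tumors Cxcl9 was 2.09-fold lower than without (-1.06 ± 0.05, adjusted p = 1.38e-05), and the difference was -0.70 under another background correction (normexp, adjusted p = 0.000281). Cxcl10 differed by -0.24 ± 0.10 (adjusted p = 0.0976).

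Of the transcription factors, Stat2, a subunit of the complex that binds the ISRE, was lower with tumors. It had 0.28, 0.26 and 0.21 with tumors, 0.58, 0.49 and 0.58 without tumors, and 0.51, 0.26 and 0.27 in DMH. DMH replicate 1 stood with the other arrays of its slide, and DMH replicates 2 and 3 with the arrays with tumors. The difference of -0.30 ± 0.08 (adjusted p = 0.0135) was -0.03 with the slide as a block (adjusted p = 0.769). Irf1, which drives class I genes downstream of interferon gamma, Irf7, which amplifies type I interferon, and Irf9 differed by 0.17, -0.10 and -0.01 without passing (adjusted p = 0.087, 0.254 and 0.852).

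**Figure D4:**
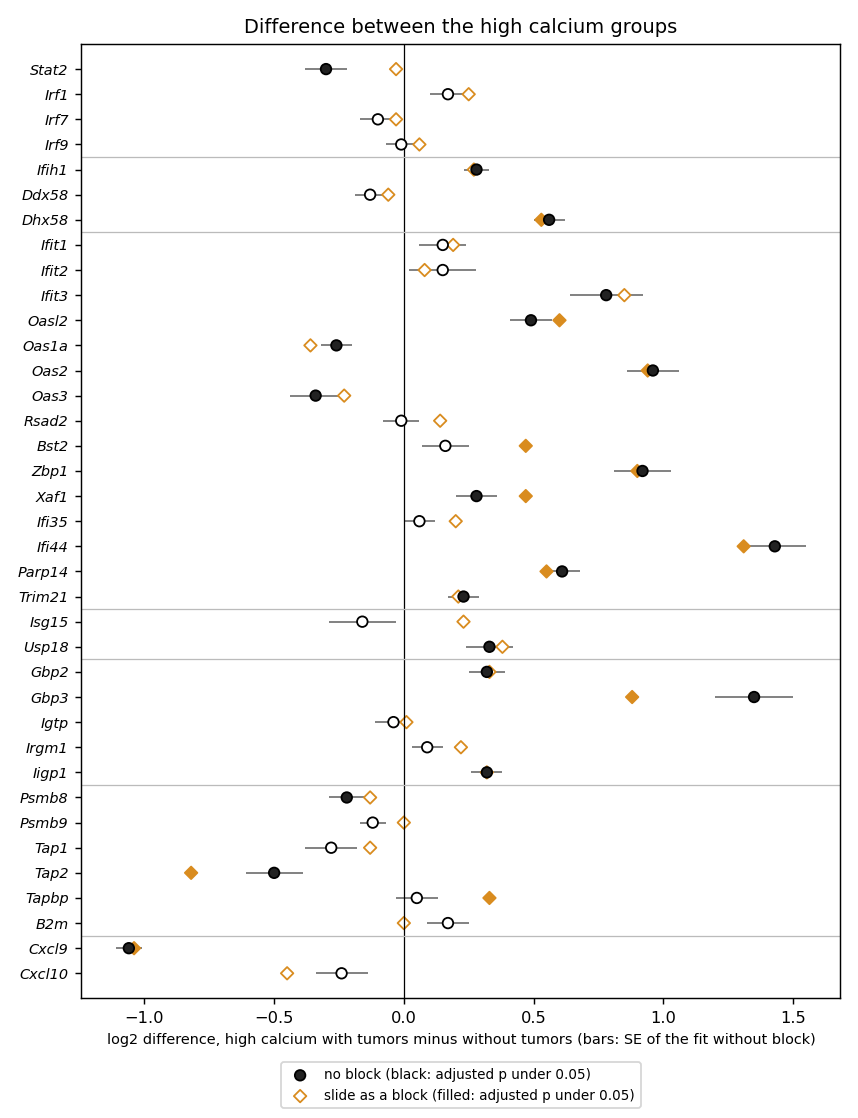
Log2 difference of each gene, high calcium with tumors minus without tumors, without a block (circles with SE, black where adjusted p is under 0.05) and with the slide as a block (diamonds, filled where adjusted p is under 0.05). Ifi44 lies farthest to the right and Cxcl9 farthest to the left in both fits.

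Against DMH, the high calcium groups moved in opposite directions for several members. These comparisons share the DMH arrays, so their values are given side by side. With tumors, 12 members were higher (32.4%, against 21% of all features) and 3 lower (8.11%, against 15.9%) than in DMH, with a median of 0.11 against 0.08. Without tumors, 5 members were higher (13.5%, against 18.4% of all features) and 9 lower (24.3%, against 17.3%) than in DMH, with a median of -0.01 against 0.07. Without DMH replicate 1 these counts were 11 higher and 9 lower, and with the mean of a gene's probes 8 higher and 7 lower. DMH was the middle group for 18 of 37 members (48.6%), against 40.3% of all features.

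Passing in both, with opposite signs, were 7 members: Dhx58, Oas2, Zbp1, Ifi44, Parp14, Gbp3 and Cxcl9. For this count, and for those below of members passing in both with 1 sign, in 1 or in neither, the share of all features was not computed. These counts are therefore not read as unusual. Ifi44 was 0.56 ± 0.12 higher with tumors than in DMH (adjusted p = 0.0101) and differed by -0.87 ± 0.12 without tumors against DMH (adjusted p = 0.00159). Gbp3 differed by 0.67 ± 0.15 with tumors (adjusted p = 0.01) and by -0.68 ± 0.15 without tumors (adjusted p = 0.0105). The Gbp3 difference without tumors was -0.33 with the slide as a block (adjusted p = 0.048). For Cxcl9 the difference with tumors was -0.57 ± 0.05 (adjusted p = 0.000257) and that without tumors 0.49 ± 0.05 (adjusted p = 0.00029). Oas2 differed by 0.49 with tumors and -0.47 without tumors (adjusted p = 0.00686 and 0.00828). Its dimmer probe was higher than in DMH in both groups, by 0.56 with tumors and 0.22 without tumors. The Oas2 call without tumors ended with the mean of its probes, and that with tumors ended within slide 2.

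Zbp1, Parp14 and Dhx58 had smaller differences from DMH. Those of Zbp1 were 0.44 with tumors and -0.48 without tumors (adjusted p = 0.0172 and 0.0133), which became 0.44 and -0.46 under the slide block (adjusted p = 0.0588 and 0.104). Its call with tumors ended without replicate 2 with tumors or DMH replicate 3 (adjusted p = 0.0529 and 0.0613), and that without tumors ended without DMH replicate 2 (adjusted p = 0.0503). Parp14 differed by 0.27 and -0.35 (adjusted p = 0.0229 and 0.00867), which became 0.23 and -0.32 under the slide block (adjusted p = 0.091 and 0.072). Its call with tumors was also lost when replicate 1 or 3 with tumors was left out (adjusted p = 0.0626 and 0.0568) or DMH replicate 1 or 3 (adjusted p = 0.0536 and 0.075). Dhx58 differed by 0.33 and -0.23 (adjusted p = 0.00361 and 0.0194). Its call without tumors ended with the slide as a block (-0.20, adjusted p = 0.135), without replicate 1 or 2 without tumors (adjusted p = 0.0615 and 0.0618) and without DMH replicate 2 (adjusted p = 0.0698).

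Passing in both with 1 sign were 4 members. Usp18 was lower than in DMH, with differences of -0.48 ± 0.09 with tumors (adjusted p = 0.00547) and -0.81 ± 0.09 without tumors (adjusted p = 0.000554), and both calls held in all 21 alternatives other than a required 2-fold change. Ddx58, with -2.03, -2.14 and -2.03 with tumors, -2, -1.86 and -1.96 without tumors, and -1.63, -1.75 and -1.67 in DMH, was also lower (differences of -0.38 and -0.26, adjusted p = 0.00275 and 0.0157). DMH arrays were the highest 3, and the high calcium groups did not overlap. The Ddx58 call without tumors ended without replicate 1 or 3 without tumors (adjusted p = 0.0566 and 0.054) or DMH replicate 3 (adjusted p = 0.0535). These are values of its brightest probe. Another kept Ddx58 probe differed from DMH by -0.55 with tumors and 0.06 without tumors, and a further one by 0.1 and -0.71. Gbp2 was higher by 0.68 ± 0.07 with tumors (adjusted p = 0.000506) and 0.36 ± 0.07 without tumors (adjusted p = 0.00661).

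Tap2 was higher than in DMH by 0.34 ± 0.11 with tumors (adjusted p = 0.0425) and 0.84 ± 0.11 without tumors (adjusted p = 0.000993). The Tap2 call with tumors ended in 14 of 21 alternatives, among them each replicate with tumors left out in turn (adjusted p = 0.105, 0.111 and 0.0593), replicate 1 or 3 without tumors (adjusted p = 0.0563 and 0.0647) and DMH replicate 1 or 3 (adjusted p = 0.0654 and 0.0506). It was 0.22 without DMH replicate 1 and 0.25 with the slide as a block (adjusted p = 0.0622). Without tumors the Tap2 call held in all 21 alternatives other than a required 2-fold change, and the difference was 1.06 within slide 1.

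With tumors, 4 further members passed against DMH that did not pass without tumors, and all were higher. Trim21 differed by 0.33 ± 0.06 (adjusted p = 0.00616), Iigp1 by 0.27 ± 0.06 (adjusted p = 0.00829), Oasl2 by 0.27 ± 0.08 (adjusted p = 0.031) and Irf1 by 0.23 ± 0.07 (adjusted p = 0.0364). The Oasl2 and Irf1 calls each ended when any array with tumors or DMH replicate 2 or 3 was left out (adjusted p from 0.0557 to 0.0871 and from 0.0676 to 0.115). The high calcium groups themselves differed in Trim21, Iigp1 and Oasl2 as given above, and for Irf1 that test did not pass. All 12 rises against DMH with tumors were lost on the authors' own table of values, with unchanged signs. That table is centred on each array's median, and its median difference over all features was -0.06, against 0.08. It kept 31.1% of the calls over all features in this comparison. Why the rises were lost was not tested.

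Without tumors, 3 further members passed against DMH that did not pass with tumors, and for all 3 the difference between the high calcium groups passed as well. Oas1a was 0.44 ± 0.06 higher (adjusted p = 0.00134) and Psmb8 0.24 ± 0.07 higher (adjusted p = 0.0294), and Ifit3 was 1.61-fold lower (-0.68 ± 0.14, adjusted p = 0.00738). The Ifit3 call ended with the slide as a block (-0.73, adjusted p = 0.0535). That of Psmb8 ended with the block too (0.15, adjusted p = 0.208), and without replicate 1 or 3 without tumors (adjusted p = 0.0778 and 0.0938) or DMH replicate 2 or 3 (adjusted p = 0.0731 and 0.0917). The slide-block differences without tumors against DMH equal those within slide 1 and so rest on 1 DMH array, replicate 1. All 14 members called without tumors kept their sign there. The other 19 measured members passed in neither comparison with DMH.

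When the high calcium groups were averaged and set against DMH, 5 members were higher (13.5%, against 17.8% of all features) and 2 lower (5.41%, against 13.8%), with a median of 0.03 against 0.07. Both shares were below those of all features. Usp18 fell by 0.64 ± 0.08 on the log2 scale (adjusted p = 0.001) and Ddx58 by 0.32 ± 0.05 (adjusted p = 0.00384). Tap2 was 0.59 ± 0.09 higher (adjusted p = 0.00299), Gbp2 0.52 ± 0.06 (adjusted p = 0.000843) and Oas1a 0.30 ± 0.05 (adjusted p = 0.00404). Trim21 was 0.21 higher (adjusted p = 0.023), a call lost without replicate 3 without tumors or DMH replicate 3 (adjusted p = 0.0519 and 0.0984). Rsad2 was 0.20 higher (adjusted p = 0.0457), and that call ended in 14 of 19 alternatives, 8 of which left out 1 array (adjusted p from 0.0656 to 0.123).

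Other genes of the pathway were read beside the members. Of 49 further interferon-induced genes, 24 were higher with tumors than without (49%, against 27% of all features). Lower were 8 (16.3%, against 20.6%), and the median was 0.22. With the slide as a block 14 were higher and 7 lower, while 15.6% of all features were higher and 14.4% lower. Adar, the RNA-editing enzyme, had 1.51, 1.51 and 1.41 with tumors, 0.51, 0.76 and 0.80 without tumors, and 1.00, 1.20 and 1.11 in DMH, with DMH in the middle and no overlap. It was 0.79 higher with tumors than without (adjusted p = 0.000425), and Ido1, which breaks down tryptophan, was 0.67 higher (adjusted p = 0.000196). Trim34a, of the tripartite motif family, was lower with tumors (-1.09, adjusted p = 2.96e-05), as was the guanylate-binding protein gene Gbp7 (-1.04, adjusted p = 0.000665). The T cell chemokine gene Ccl5 was lower too (-0.55, adjusted p = 0.0015), but did not pass with the slide as a block (-0.36, adjusted p = 0.0934).

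**Figure D5:**
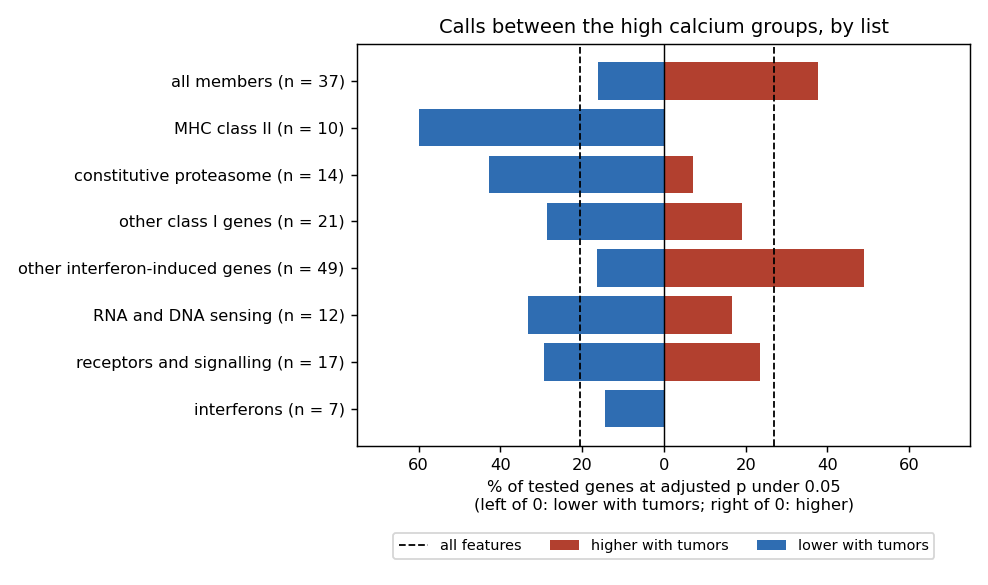
Share of tested genes in each list that were higher (right, red) or lower (left, blue) with tumors than without at adjusted p under 0.05. Dashed lines mark the shares over all features, 27% higher and 20.6% lower, and n is the number of genes tested. Ifng and 1 MHC class II gene, kept through the group without tumors alone, are counted among the lower.

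Against DMH, 11 of these 49 were higher with tumors (22.4%, against 21% of all features) and 6 lower (12.2%, against 15.9%). Without tumors 8 were higher (16.3%, against 18.4%) and 17 lower (34.7%, against 17.3%). Ccl5 was higher by 0.70 with tumors (adjusted p = 0.000845) and 1.25 without tumors (adjusted p = 6.39e-05).

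Interferon genes themselves had low signals, and of 19 looked for 7 were tested. Their mean signal per array was -4.03 to -2.43 with tumors, -3.26 to -3.16 without tumors and -3.96 to -3.55 in DMH. The -2.43 was that of replicate 3 with tumors, alone on slide 3. All 7 had their highest signal with tumors on that array, which widened the spread of that group. Apart from Ifng, those tested were type I interferon genes. These were well above background on all 9 arrays and passed in no comparison. Ifng, which encodes interferon gamma, had -4.67, -4.84 and -4.62 with tumors, -3.80, -4.01 and -3.64 without tumors, and -5.57, -4.94 and -4.69 in DMH, and was well above background on 2, 3 and 2 arrays of these groups. Arrays without tumors were the highest 3. Ifng was kept through that group alone, so its differences are not tested here. Ifnb1 was not well above background on all arrays of any group and was not tested.

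Among receptors and signalling genes, 4 of 17 were higher and 5 lower with tumors than without (23.5% and 29.4%, against 27% and 20.6% of all features), while the slide block left 1 in each direction. Ifnlr1, the type III interferon receptor of epithelial cells, was 0.55 higher (adjusted p = 0.00148), though not with the slide as a block (0.51, adjusted p = 0.0575), and Ifngr1, a chain of the interferon gamma receptor, 0.37 higher (adjusted p = 0.00187). The receptor kinase gene Jak2 was lower (-0.77, adjusted p = 0.00308). Of 12 further sensing genes 2 were higher and 4 lower (16.7% and 33.3%), with 1 and 2 under the block. Ticam1, an adaptor of Toll-like receptor 3, was lower (-0.76, adjusted p = 0.000162). Socs3, a feedback inhibitor of cytokine receptors, was lower than in DMH in both groups, with differences of -0.79 with tumors (adjusted p = 0.000299) and -0.98 without tumors (adjusted p = 8e-05).

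Among class I genes outside the 39, heavy chains differed in both directions. Of 21 other class I genes, 4 were higher with tumors than without and 6 lower (19% and 28.6%, against 27% and 20.6% of all features). Of the 12 heavy chain genes of the H2 region among them 3 were higher and 5 lower (25% and 41.7%). With the slide as a block, 5 of the 12 were lower and none of the higher calls remained, while 14.4% of all features were lower and 15.6% higher. H2-D1 had 5.96, 5.90 and 6.01 with tumors, 6.53, 6.71 and 6.67 without tumors, and 6.28, 6.09 and 6.19 in DMH. The groups did not overlap. H2-D1 was lower with tumors than without (-0.68, adjusted p = 0.000293), as were H2-Q7 (-0.72, adjusted p = 0.000175) and H2-Q10 (-0.76, adjusted p = 0.000305). These genes are near copies of each other, so probes can share their targets and the values are uncertain as to which gene they measure. Calr, the chaperone calreticulin, was lower (-0.64, adjusted p = 0.000204). Of 14 subunits of the constitutive proteasome, 1 was higher and 6 lower (7.14% and 42.9%), with 1 and 2 under the block. Psmb1 was among the lower ones (-0.47, adjusted p = 0.000123). Psmb10, the third inducible proteasome subunit, differed by 0.11 (adjusted p = 0.195). Of 10 MHC class II genes 6 were lower (60%, against 20.6% of all features), and 1 with the slide as a block. Among the 6, 1 gene was not well above background on any array with tumors or in DMH. It was kept through the group without tumors alone, so its call is not read as a result.

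Markers of cell types also differed between the groups, and their part in the results above was not tested. Beside the counts below, 27% of all features were higher and 20.6% lower with tumors than without. T and NK markers averaged -1.96 to -1.72 on the arrays with tumors, -2.07 to -1.89 without tumors and -1.92 to -1.77 in DMH, and 2 of 11 were higher and 2 lower with tumors than without. Gzmb, a granzyme, was 1.46 higher with tumors (adjusted p = 0.000384), and Cd3g, of the T cell receptor complex, was lower (-0.62, adjusted p = 0.000462). Macrophage markers averaged 0.38 to 0.45 with tumors, 0.39 to 0.50 without tumors and 0.61 to 0.66 in DMH, with 2 of 10 higher and 4 lower with tumors than without. Of the 2 that were higher, Fcgr1, an Fc receptor gene that interferons can induce in macrophages, differed by 0.88 (adjusted p = 7.37e-05). With tumors against DMH, where 21% of all features were higher and 15.9% lower, 1 of the 10 macrophage markers was higher and 6 were lower. In that comparison 6 of 7 B and plasma cell markers and all 3 neutrophil markers tested were lower. All 7 smooth muscle markers were higher, and of the 11 T and NK markers 1 was higher and 0 lower. Dendritic and plasmacytoid markers averaged -1.32 to -0.54 with tumors, -1.05 to -0.92 without tumors and -1.29 to -0.90 in DMH, and Siglech, which defines plasmacytoid cells, was not well above background on all arrays of any group. B and plasma cell markers averaged 1.05 to 1.32 with tumors, 1.63 to 1.79 without tumors and 1.74 to 1.78 in DMH, and 5 of 7 were lower with tumors than without. Smooth muscle markers averaged 4.36 to 4.65 with tumors, 3.94 to 4.22 without tumors and 2.99 to 3.70 in DMH. Neutrophil markers averaged -3.21 to -2.94 with tumors, -4.21 to -3.88 without tumors and -1.22 to -1.09 in DMH, and adipocyte markers -1.60 to 0.01, -3.38 to -1.29 and 1.70 to 1.84 in the same groups. Of the neuron and glia markers 3 of 6 were higher with tumors than without, and of the endothelial ones 2 of 7 were higher and 4 lower. Epithelial markers averaged 6.08 to 6.37 with tumors, 6.48 to 6.59 without tumors and 6.18 to 6.33 in DMH, with 1 of 11 higher and 4 lower with tumors than without.

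Several members had more than 1 probe. Of 13 members with several probes kept, 7 had another probe whose sign between the high calcium groups was opposite to that of the brightest one (Ddx58, Ifih1, Ifit2, Irf1, Irgm1, Parp14 and Tapbp). Of the 16 other probes, 12 were lower with tumors than without, 10 of them past the threshold, and 3 were higher past it. The matching shares over all genes with several kept probes were not computed. These counts are therefore not read as particular to the members. Over all kept probes, the dimmest (mean signal under -4) had a median difference of -0.26, and those above 0 had medians of -0.01 to 0.01. Irf1 had 4.60, 4.66 and 4.66 with tumors and 4.40, 4.41 and 4.61 without tumors on its brightest probe, but -0.63, -0.74 and -0.75 with tumors and 0.07, -0.01 and 0.06 without tumors on the other. Arrays with tumors were thus high on 1 Irf1 probe and low on the other. Between the high calcium groups Oas2 differed in the same direction on both probes. The dimmer one had -4, -3.80 and -3.77 with tumors and -4.26, -4.21 and -4.11 without tumors. Without tumors against DMH the Oas2 probes had opposite signs.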

How the data were processed

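Total RNA of 9 mucosa samples was hybridised to 1-colour Agilent arrays (design 014868 per the file headers), 1 array per sample. Spot intensities were extracted by the authors with Agilent Feature Extraction 10.5.1.1, per the submitters' processing notes, and the processed signal, already background-subtracted per the file headers, was used here. The authors' deposited log2 value table, centred on each array's median, served as an alternative. Controls and spots marked as outliers were dropped, log2 signals were scaled to each array's 75th percentile, and spots of a probe were averaged. Of 41174 probes, 25097 were named with 1 symbol through RefSeq accessions (GRCm38.p6) and 16077 stayed unnamed. Probes were kept (27207) when at least 1 group had all 3 of its arrays well above background, and the brightest kept probe stood for a gene. Unnamed probes stayed in as features of their own (21095 features, 14193 of them named).

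The 9 arrays in 3 groups entered 1 fit (lmFit, then eBayes, of limma 3.58.1, run in R 4.3.3), with 4 contrasts and Benjamini-Hochberg adjustment over all features at 0.05. Every adjusted p in the text is from that test unless a block or another setting is named. Alternatives were a slide block, fits within a slide, a replicate block, normexp background correction (offset 50, on median signals), quantile normalization, the authors' values, other filters, the mean of a gene's probes, other variance models, array weights and leaving out each array. Same-numbered arrays did not deviate together (r of -0.567 to 0.221, with 2 of 9 pairs over 0.1), so the numbers do not pair them. The 39 genes and the other lists were chosen with earlier results of these data known. All 39 are named. Of other pathway lists, up to 4 genes per list and contrast with the largest passing differences could be named, plus Nlrc5, Psmb10, Ifng and Ifnb1, and up to 3 of each marker list. Siglech is named outside that rule, after its values were seen. Nlrc5 had no probe named here, and 1 other gene open to naming is not reported here. The number of arrays limits the precision.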

Additional observations from a re-analysis of the deposited data

Results flagged for a closer look

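For 7 members the high calcium groups differed from DMH in opposite directions, each past the threshold, and the test between the groups themselves passed. With tumors minus without tumors, the difference was 1.43 for Ifi44 (limma, adjusted p = 0.000136), 1.35 for Gbp3 (adjusted p = 0.000351), 0.96 for Oas2 (adjusted p = 0.000259) and 0.92 for Zbp1 (adjusted p = 0.000531). It was 0.61 for Parp14 (adjusted p = 0.000476), 0.56 for Dhx58 (adjusted p = 0.000273) and -1.06 for Cxcl9 (adjusted p = 1.38e-05). In all 7, each of the 3 arrays with tumors lay on 1 side of the DMH arrays and each of the 3 without tumors on the other. The share of all features with this pattern was not computed. On the authors' values none of the 7 passed against DMH in both groups, with unchanged signs. There the call with tumors against DMH ended for all but Cxcl9. The call without tumors against DMH ended for Cxcl9 and Dhx58. These are values of the brightest probe, and the dimmer Oas2 probe and another Parp14 probe were higher than in DMH in both groups. The dimmest Parp14 probe had the reverse signs against DMH, -0.88 with tumors and 0.58 without tumors. The others of the 7 had 1 probe each. Slides held 1 high calcium group each. With the slide as a block the difference between the high calcium groups passed for all 7, but the differences from DMH did not pass for Zbp1 and Parp14 in either group (adjusted p = 0.0588 and 0.091 with tumors, 0.104 and 0.072 without tumors), nor for Dhx58 without tumors (adjusted p = 0.135).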

How the results depend on the processing

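The differences between the high calcium groups of Dhx58, Oasl2, Oas2, Zbp1, Ifi44, Gbp3 and Cxcl9 passed in all 20 alternatives other than a required 2-fold change, which Ifi44, Gbp3 and Cxcl9 met. In counts of members, given as higher and lower, the main values were 14 and 6 with tumors against without, 12 and 3 with tumors against DMH, 5 and 9 without tumors against DMH, and 5 and 2 for both against DMH. With the slide as a block, 2 were lower with tumors than without, and the median without tumors against DMH was -0.11. Within slide 1, 3 were higher and 1 lower without tumors than in DMH, with a median of -0.11. The replicate block left 3 higher for both against DMH, as did no filter on dim probes, and normexp left 2 higher and 1 lower.

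On the authors' values, 0 were higher for both against DMH, 0 with tumors against DMH and 1 without tumors against DMH, with medians of -0.13, -0.01 and -0.19, and 8 were higher and 1 lower with tumors than without. That table moved the median of all features to -0.11, -0.06, -0.14 and 0.09 in these comparisons, and the share of higher calls to 30.3%, 39.5%, 29.3% and 63%, against 56.5%, 56.9%, 51.5% and 56.7%. Quantile normalization gave 46.4% with tumors against DMH. With array weights 12 were higher for both and 12 without tumors against DMH, and trended, robust variances gave 8 for the last. With an unadjusted p under 0.05 and at least a 2-fold change, 0 members passed against DMH in either direction in any of the 3 comparisons, and 2 were higher and 1 lower with tumors than without. limma's adjusted counts for the same comparisons are those given first.

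With the mean of a gene's probes, 5 were lower with tumors than in DMH (median 0.01), 8 higher without tumors than in DMH (median 0.1), and 11 lower with tumors than without (median -0.04). Among values that passed with the brightest probe or with the mean, signs turned with tumors against without for Irf1 (-0.29), Ifih1 (-0.04), Ifit2 (-0.44), Parp14 (-0.12), Tapbp (-0.45), Gvin1 (-0.1) and Jak1 (0.03). They turned with tumors against DMH for Irf1 (-0.02), Rsad2 (-0.61), Parp14 (-0.01) and H2-K1 (-0.41), without tumors against DMH for Parp14 (0.11), and for both against DMH for Rsad2 (-0.08). Leaving out 1 array gave 12 to 15 higher and 4 to 7 lower with tumors than without (median 0.05 to 0.15), 7 to 13 and 3 to 4 with tumors against DMH (0.04 to 0.14), 4 to 11 and 7 to 10 without tumors against DMH (-0.04 to 0.03), and 3 to 7 and 2 to 3 for both (-0.01 to 0.05). The 7 came without DMH replicate 3 and the 11 without DMH replicate 1. For both against DMH, the 3 came without replicate 3 without tumors or DMH replicate 3. Beyond the construction of each alternative, the cause was not tested. The replicate block changed the call of Xaf1, Trim21, Usp18 and Psmb8 with tumors against without, of Irf1, Oasl2 and Tap2 with tumors against DMH, of Dhx58 and Psmb8 without tumors against DMH, and of Rsad2 and Trim21 for both, among members called without it.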
